A study of Homo sapiens with 30 samples.

Results

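The response of RSRP1 knockout A549 cells to a magnetic exposure was followed in 6 of the 30 RNA sequencing libraries of this study: the 3 libraries KOA_EX_1 to KOA_EX_3 and the 3 libraries KOA_NE_1 to KOA_NE_3. They were chosen by their labels alone, and no measured value entered the choice. A549 is an established human lung adenocarcinoma line. KOA_EX cells carry the knockout of RSRP1, whose protein is rich in arginine and serine, and received the magnetic exposure labelled 2 H. KOA_NE cells carry the same knockout and were not exposed. Neither group carries the label iR or D3. What these letters stand for is unknown here, and they are kept as names. Knockout cells with iR, exposed (iR_KOA_EX) and not exposed (iR_KOA_NE), are used below for 1 comparison. No wild type without iR was analysed here, so nothing that follows can be assigned to the loss of RSRP1. No source at hand gives the field strength, the part of RSRP1 that was removed or the number of knockout clones. The series title links magnetic exposure to the suppression of lung cancer cells through RSRP1 and secreted signals. Whether the 3 libraries of a group came from separate cultures is not stated. The limma p-values and standard errors describe the scatter within groups, pooled over all 10 groups of the 30 libraries and not taken from these 6 alone. That scatter may be technical.

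Several stress programmes recur in the results and are outlined here as background. In the heat shock response, unfolded protein in the cytosol releases the factor HSF1, which binds repeats of the unit GAA and its reverse TTC in the promoters of chaperone genes. Chaperones of the HSP70 and HSP90 families, helped by J-domain and BAG co-chaperones, then refold proteins or pass them to the proteasome. In the unfolded protein response of the endoplasmic reticulum, the sensors IRE1, PERK and ATF6 raise lumenal chaperones and the degradation machinery, and the ATF4 and CHOP arm below PERK is shared with other stresses. YAP and its partner TAZ are coactivators that work with TEAD factors on genes such as CCN1 and CCN2 and respond to cell shape and tension. Many inducible genes of these programmes turn over fast at the RNA level, so a library records their state at the time of harvest.

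Depth was even: reads recovered from the steps between FPKM values (fragment counts corrected for gene length and library size) came to between 35106804 and 36565117 per library. Over genes, which are no replicates of each other, the correlation was 0.9973 to 0.9979 within KOA_EX or KOA_NE and 0.9829 to 0.9872 between them. RSRP1 itself (chromosome 1, 25242249 to 25338254 of GRCh38.p14, NCBI gene 57035) was at 2.20, 2.09 and 2.20 FPKM in the exposed libraries and at 2.12, 2.70 and 2.46 FPKM in the unexposed ones. Wild-type libraries, all of them with iR, held 37.4 to 63.4 FPKM (12 libraries), so all 6 libraries matched their genotype label. The 2 ranges without iR overlap, and the log2 difference of -0.11 did not pass the test (limma adjusted p = 0.126). It passed without KOA_NE replicate 1, the lowest of the unexposed libraries (-0.18, adjusted p = 0.0214). The 12 A549 and lung epithelial markers summed to between 9829 and 10095 FPKM with exposure and between 9884 and 10095 without. Of these 12, 1 was under 1 FPKM in all 6 libraries, and a sum does not show each member. Of 9 markers of the alveolar type II cell, which A549 is often taken to model, 7 were under 1 FPKM in all 6 libraries, among them the surfactant genes SFTPB, SFTPC and SFTPD, with SFTPA2 and SLC34A2 listed at 0. The 9 summed to 15.8 to 17.5 FPKM with exposure and 16.3 to 17.4 without, mostly ABCA3, and of the 2 tested NAPSA rose (0.72) and ABCA3 did not pass (-0.09).

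Differences are given as KOA_EX minus KOA_NE on the log2(FPKM + 1) scale, on which changes of low genes look smaller than they are. With limma and Benjamini-Hochberg adjustment over the 12086 genes tested, 5020 passed an adjusted p of 0.05, which is 41.5% of them: 2272 were higher in exposed cells (18.8%) and 2748 lower (22.7%). Most of these differences were small. Of the genes that were higher 1807 differed by less than 0.5, and of those that were lower 2484 did. A rise of at least 1 was called for 102 genes (0.844%) and a fall of at least 1 for 7 (0.0579%), so the large differences were almost all rises. The 3 libraries of one group lay wholly above or below the other 3 for 6970 genes, 57.7% of those tested, and separation of the libraries is to be read against that share. The counts for gene lists below are to be read against 18.8% higher and 22.7% lower. Tested genes are those that reached 1 FPKM in 3 or more of the 30 libraries. HSPA6, HSPA1L, ANKRD1 and CHAC1 were under 1 FPKM in every KOA_NE library. Such members entered the test through other libraries and had little room to be counted as falls. The median difference over all genes tested was -0.02.

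**Figure D1:**
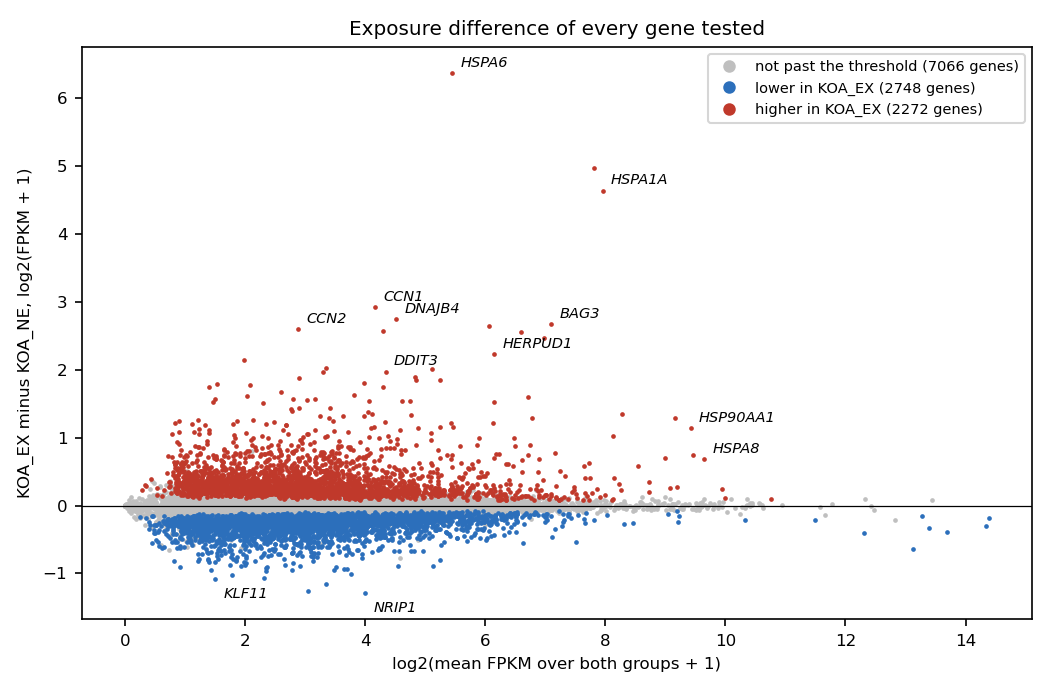
Difference between exposed and unexposed RSRP1 knockout cells (y axis, log2 scale) against mean level (x axis, log2 of mean FPKM + 1) for each of the 12086 genes tested, coloured by the limma call. The points above 2 are chaperones, co-chaperones, the YAP targets CCN1 and CCN2 and a few others, while no gene falls below -1.29.

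The inducible HSP70 genes rose more than any other genes. HSPA6, a family member with next to no RNA in unstressed cells, stood at 97.2, 91.0 and 68.2 FPKM in the exposed libraries against 0.0465, 0.0475 and 0.0119 FPKM in the unexposed ones. In reads, that is 8211, 7748 and 5638 against 4, 4 and 1. The log2 difference was 6.37 ± 0.16 (SE, limma adjusted p = 4.45e-20). HSPA1B, a major stress-inducible HSP70, was at 494, 427 and 384 FPKM with exposure and 12.5, 13.0 and 13.1 FPKM without, a ratio of means of 33.8. Its near-identical neighbour HSPA1A was at 561, 447 and 420.4 FPKM with exposure and 18.8, 17.9 and 17.5 FPKM without, a ratio of means of 26.4. Reads of these copies can be swapped by alignment, so their split is uncertain, whereas their joint rise is not affected by it. HSPA6 likewise has a close pseudogene copy, HSPA7. In all 3 genes replicate 3 was the lowest of the exposed libraries and replicate 1 the highest, yet the lowest exposed library was far above the highest unexposed one.

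**Figure D2:**
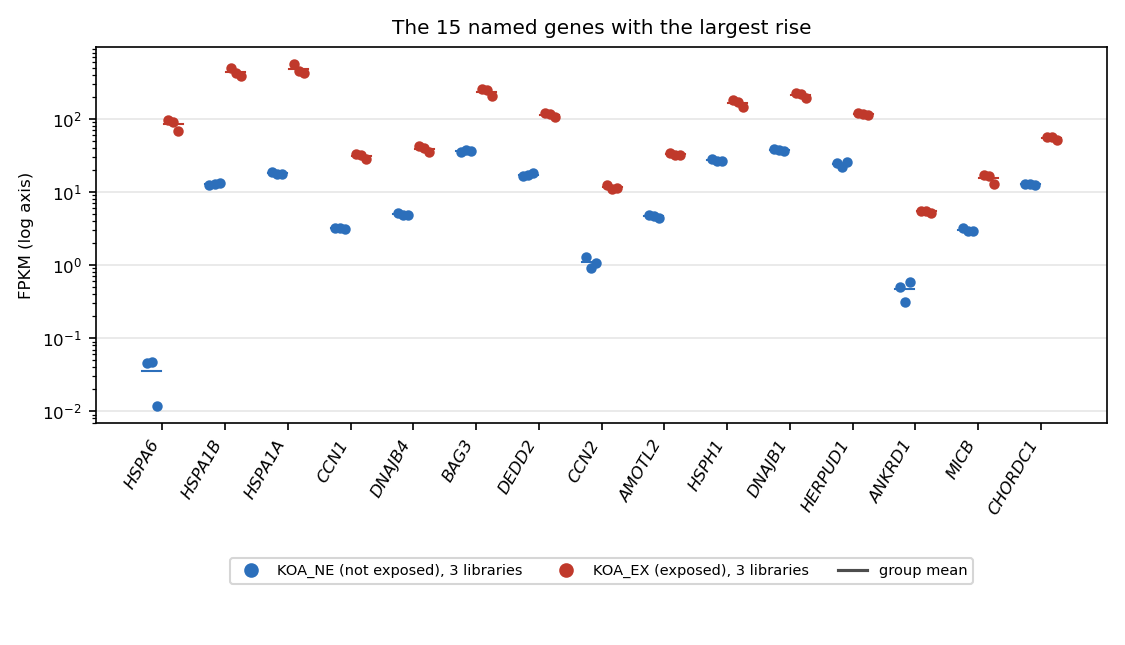
FPKM (log axis) in each of the 3 exposed and 3 unexposed libraries for the 15 named genes with the largest rise, with group means as bars. The naming rule required libraries without overlap, and in every gene the groups are far apart compared with the scatter within them. HSPA6 starts from under 0.05 FPKM.

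The promoters of these 3 genes, the largest rises of the heat shock lists, are shown, and each holds a known regulatory word. Each line gives the 250 bases before the annotated start, 5′ to 3′, from RefSeq (GRCh38.p14). Capitals mark the 8-base pairs of inverted heat shock units, GAANNTTC or TTCNNGAA, on either strand. The windows are chr1:161524290-161524539 on the plus strand for HSPA6, chr6:31827488-31827737 on the plus strand for HSPA1B and chr6:31815293-31815542 on the plus strand for HSPA1A.
HSPA6: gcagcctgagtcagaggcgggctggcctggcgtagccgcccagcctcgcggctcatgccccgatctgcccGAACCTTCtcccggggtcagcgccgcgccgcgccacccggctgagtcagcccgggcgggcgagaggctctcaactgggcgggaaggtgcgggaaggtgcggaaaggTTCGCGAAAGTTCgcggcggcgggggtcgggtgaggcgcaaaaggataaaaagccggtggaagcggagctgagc
HSPA1B: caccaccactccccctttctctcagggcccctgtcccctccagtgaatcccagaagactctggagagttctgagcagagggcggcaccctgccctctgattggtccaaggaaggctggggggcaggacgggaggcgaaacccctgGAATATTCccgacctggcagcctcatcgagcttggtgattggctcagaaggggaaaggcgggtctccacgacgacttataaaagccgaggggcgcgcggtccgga
HSPA1A: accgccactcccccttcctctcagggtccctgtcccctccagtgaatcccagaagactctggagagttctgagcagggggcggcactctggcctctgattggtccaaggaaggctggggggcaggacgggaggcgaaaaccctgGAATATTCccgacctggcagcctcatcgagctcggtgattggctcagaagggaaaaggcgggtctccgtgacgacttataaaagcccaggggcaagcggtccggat
HSPA6 holds 3 matches, beginning at positions -180, -74 and -69 from the start, of which the last 2 overlap and form a run of 3 units. HSPA1B and HSPA1A hold 1 match each, at -105 and -106, inside windows that are nearly the same letter for letter.

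Among the 48 tested genes of the 4 heat shock lists described below that had a promoter in the table, 13 held such a pair of units (27.1%), against 843 of the 9885 tested genes with a promoter (8.53%). Of the 48 genes 36 rose, and all 13 were among them: BAG2, CHORDC1, DNAJA1, DNAJB6, HSPA1A, HSPA1B, HSPA1L, HSPA6, HSPA8, HSPB1, HSPB8, SERPINH1 and TCP1. DNAJB4 (2.75), BAG3 (2.67), HSPH1 (2.55) and DNAJB1 (2.47), the next largest rises of these lists after the printed genes, were not among the 13. For them a missing match and a missing promoter are not separated here. A run of 3 units was in 5 of the 48 (CHORDC1, DNAJB6, HSPA6, HSPA8 and SERPINH1) and in 30 of the 9885 (0.303%). Counted over every listed start of a gene, a choice made after seeing the data, the pair was in 20 of the 48 and in 1155 of the 9885 (11.7%). Over all tested genes the share with a pair was 8.67% for differences between -0.2 and 0.2, 7.91% between 0.2 and 0.5, 14.2% between 0.5 and 1 and 13.7% between 1 and 2. Above 2 it was 6 of 14 promoters, which include those of heat shock genes named here. A match describes the letters in a window and does not show that a factor was bound.

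Most other members of the HSP70 and HSP110 families rose, by less. Of 13 members tested 10 rose and 2 fell, with a median difference of 0.87. HSPH1, the nucleotide exchange factor HSP110, rose from 27.1 ± 1.08 to 165 ± 19.3 FPKM (SD, n = 3 each, log2 difference 2.55). Its relatives HSPA4L (1.97) and HSPA4 (0.87) rose as well. HSPA8, the constitutive cytosolic HSP70, was already abundant and stood at 1047, 977 and 945 FPKM against 614, 618 and 609 FPKM, a rise of 0.69. Its exposed mean exceeded that of HSPA1A and HSPA1B in FPKM, a unit that allows for gene length. HSPA1L, which lies beside HSPA1A, rose from 0.437 to 3.21 FPKM (1.56). HSPA9, the mitochondrial member, rose by only 0.08. HSPA2 (-0.23) and HSPA14 (-0.24) fell, and 1 of these 2 calls was lost in 5 of the settings tried. HSPA12A (-0.09) did not pass.

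Co-chaperones that drive HSP70 rose with it. Of 16 J-domain, BAG and small heat shock proteins tested 10 rose and 1 fell (median 0.74). DNAJB4, a J-protein that starts the HSP70 cycle, stood at 41.9, 40.0 and 34.8 FPKM with exposure and 5.20, 4.79 and 4.78 FPKM without (2.75 ± 0.10). DNAJB1, the main stress-inducible J-protein and a feedback inhibitor of HSF1, stood at 224, 221 and 192 FPKM against 38.4, 37.2 and 36.3 FPKM (2.47 ± 0.07). BAG3, which couples HSP70 to selective autophagy, was at 258, 247 and 203 FPKM with exposure and 34.9, 36.9 and 36.2 FPKM without (2.67 ± 0.10). For each of these genes the unexposed libraries lay close together and every exposed library was several times higher. DEDD2, a death-effector-domain protein outside the lists, had a profile of the same kind (119.7, 115 and 106 FPKM against 16.8, 17.1 and 18.1 FPKM), as did MICB, a stress-induced ligand of natural killer cells (17.0, 16.3 and 12.9 FPKM against 3.19, 2.96 and 2.89 FPKM). HSPB8, the small heat shock protein that works with BAG3, rose by 1.85, and HSPB1, the abundant small heat shock protein, by 1.28. DNAJA1 (1.35), DNAJB2 (1.10), DNAJB6 (0.97) and BAG2 (0.50) rose too. BAG1 fell (-0.47), and DNAJA2, BAG5, CRYAB, DNAJB5 and HSPB11 lay between -0.15 and 0.08 without passing.

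The HSP90 machine rose by smaller steps from a higher base. Of 16 members tested, including the mitochondrial chaperonin, 11 rose and 1 fell (median 0.69). HSP90AA1, the inducible HSP90, stood at 1018, 943 and 873 FPKM against 431, 431 and 418 FPKM (1.14), and the constitutive HSP90AB1 at 929, 884 and 828 FPKM against 522, 524 and 525 FPKM (0.75). The largest rise in the list was that of CHORDC1, an HSP90 co-chaperone (2.01, from 12.7 to 54.5 FPKM). SERPINH1, the collagen chaperone (1.52), PPID (1.07), FKBP4 (1.00), the ATPase activator AHSA1 (0.78), STIP1 (0.68) and PTGES3 (0.67) followed. The chaperonin pair HSPD1 (0.70) and HSPE1 (0.50) rose together. FKBP5, a glucocorticoid-responsive HSP90 partner, fell (-0.24). The transcription factor HSF1 itself was at 29.3 ± 2.30 FPKM with exposure and 29.5 ± 0.793 FPKM without (SD, n = 3 each), a difference of -0.01 that did not pass. HSF2 (-0.18), CDC37 (0.02) and TRAP1 (-0.10) did not pass either. All but CCT7 of the 8 TRiC chaperonin subunits, which fold actin and tubulin, rose, by 0.12 to 0.40.

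The 54 genes of these 4 lists in the table held 2.36%, 2.17% and 2.04% of all FPKM in the exposed libraries and 1.09%, 1.10% and 1.10% in the unexposed ones. The groups did not overlap, and the two-sided exact permutation p was 0.1, the smallest that 3 against 3 libraries can give. HSPA1A and HSPA1B alone went from 0.00699% ± 3.96e-05 to 0.214% ± 0.0318 (SD, n = 3 each).

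Chaperones of the endoplasmic reticulum rose in nearly full number and by moderate amounts. Of 23 genes tested for lumenal folding and endoplasmic-reticulum-associated degradation (ERAD) 20 rose and 1 fell (median 0.41). HERPUD1, a membrane scaffold of ERAD, stood at 121, 116 and 112 FPKM against 24.5, 22.2 and 25.5 FPKM (2.23 ± 0.15, adjusted p = 1.54e-11). DNAJB9, the lumenal J-protein that restrains IRE1, rose from 12.7 ± 0.299 to 38.7 ± 1.22 FPKM (1.54). HSPA5, the main lumenal HSP70, was at 396, 362 and 359.7 FPKM against 180.2, 183 and 183 FPKM (1.03). In all 3 genes the libraries of the 2 groups were well apart.

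By role, the other folding factors were MANF (0.76), DNAJB11 (0.62), the lumenal HSP90 HSP90B1 (0.58), DNAJC3 (0.54), the exchange factor HYOU1 (0.47), SDF2L1 (0.41) and CRELD2 (0.32). The disulfide isomerases PDIA4 (0.43), PDIA6 (0.23) and PDIA3 (0.22) and the lectins CANX (0.31) and CALR (0.19) rose by less. Among the sensors, ERN1, which encodes IRE1, rose (0.48), as did its splicing substrate XBP1 (0.42), while ATF6 did not pass (-0.05). In ERAD, SEL1L (0.36), SYVN1 (0.20) and DERL2 (0.17) rose, DERL1 did not pass (0.06) and EDEM1 fell (-0.15).

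Promoters of the 2 largest rises of this list are shown with that of HSPA5, which was added after its values were seen, as the reference gene of the pathway. Capitals mark the ER stress element, CCAAT and CCACG with 9 bases between them, or the ER stress element II, ATTGG and CCACG with 1 base between them, on either strand. The windows, from RefSeq, are chr16:56931892-56932141 on the plus strand, chr7:108569624-108569873 on the plus strand and chr9:125241344-125241593 on the minus strand.
HERPUD1: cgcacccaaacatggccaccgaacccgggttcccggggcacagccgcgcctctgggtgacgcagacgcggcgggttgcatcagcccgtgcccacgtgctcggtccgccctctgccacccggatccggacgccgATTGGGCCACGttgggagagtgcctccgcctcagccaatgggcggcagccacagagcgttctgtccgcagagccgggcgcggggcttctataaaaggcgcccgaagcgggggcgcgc
DNAJB9: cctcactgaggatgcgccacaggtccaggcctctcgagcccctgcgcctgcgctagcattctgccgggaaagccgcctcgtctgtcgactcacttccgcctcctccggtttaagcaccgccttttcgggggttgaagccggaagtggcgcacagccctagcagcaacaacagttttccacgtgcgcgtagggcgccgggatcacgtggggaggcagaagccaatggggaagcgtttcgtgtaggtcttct
HSPA5: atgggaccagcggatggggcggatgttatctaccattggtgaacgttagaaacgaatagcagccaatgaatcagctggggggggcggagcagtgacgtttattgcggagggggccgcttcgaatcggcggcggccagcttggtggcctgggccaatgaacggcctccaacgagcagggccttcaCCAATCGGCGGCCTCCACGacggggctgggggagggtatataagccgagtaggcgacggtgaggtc
HERPUD1 holds the second element at -117 and HSPA5 the first at -66. Neither string is in the DNAJB9 window, which says only that these letters are not in these 250 bases. The first element was in 6 of the 21 tested ER genes with a promoter (HSPA5, HSP90B1, CALR, CANX, CRELD2 and XBP1) and in 14 of the 9885 tested genes. The second was in 3 of the 21 (HYOU1, SDF2L1 and HERPUD1) and in 11 of the 9885. All 9 genes rose, and 19 of the 21 rose in all.

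Of the 18 genes tested downstream of ATF4 and CHOP 13 rose and 3 fell (median 0.48). DDIT3, which encodes CHOP, stood at 30.8, 32.2 and 30.8 FPKM with exposure and 5.80, 7.67 and 8.44 FPKM without (1.97). CHAC1, which degrades glutathione, was at 2.02, 1.59 and 1.29 FPKM against 0.108, 0.143 and 0.0739 FPKM (1.24). The rise of CHAC1 rests on 441, 350 and 275 reads against 24, 31 and 16. DDIT4, an inhibitor of mTORC1 (1.00), the partners CEBPB (0.88) and CEBPG (0.72) and ATF4 itself (0.85) rose as well. Among the genes of amino acid supply, SLC3A2, the heavy chain of amino acid transporters, rose (0.41), whereas its partner SLC7A11 of the cystine transporter fell (-0.37), as did PHGDH of serine synthesis (-0.19). PSAT1 did not pass (0.05), and ASNS, the asparagine synthetase, was below the filter. Of 20 cytosolic aminoacyl-tRNA synthetases 4 rose and 3 fell (median -0.05). PPP1R15A, which undoes the translation block of this response, fell (-0.23), and TRIB3 did not pass (0.06).

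Proteasome subunits were not called higher. By limma 0 of the 31 tested rose, also 0 at an unadjusted p of 0.05, and 8 fell (median -0.08, all between -0.23 and 0.04), a count of falls that ran from 4 to 14 over the settings tried and reached 14 when FPKM were rescaled without the mitochondrial genes. Of 14 ubiquitin genes and factors tested 5 rose and 3 fell. ZFAND2A, a stress-inducible regulator at the proteasome, rose from 3.51 ± 0.105 to 12.4 ± 1.23 FPKM (1.57). The polyubiquitin gene UBB (0.26) rose by less, and RNF126, a ubiquitin ligase of mislocalised proteins, fell from 15.5 ± 0.561 to 7.65 ± 0.491 FPKM (-0.93).

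Targets and regulators of YAP and TEAD formed the next block. Of 21 genes tested 13 rose and 3 fell (median 0.38). CCN1, a secreted matricellular protein, stood at 32.6, 31.7 and 28.0 FPKM with exposure and 3.17, 3.23 and 3.16 FPKM without (2.92 ± 0.09). Its relative CCN2, connective tissue growth factor, was at 12.5, 11.0 and 11.4 FPKM against 1.31, 0.91 and 1.07 FPKM (2.60 ± 0.07), and ANKRD1, a nuclear ankyrin-repeat protein, at 5.56, 5.55 and 5.24 FPKM against 0.504, 0.313 and 0.58 FPKM (2.14 ± 0.08). The lowest exposed library was several times the highest unexposed library in all 3 genes.

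The list also holds regulators of the pathway. AMOTL2, a motin that holds YAP in the cytoplasm, stood at 34.3, 31.8 and 31.7 FPKM against 4.88, 4.75 and 4.39 FPKM (2.57 ± 0.08). The LIM protein AJUBA (1.81), the kinase LATS2 (1.51), NUAK2 (1.23) and the phosphatase PTPN14 (0.63) rose, and LATS1 by 0.20. The coactivator YAP1 did not pass (0.07), TAZ, encoded by WWTR1, fell (-0.39), TEAD1 rose (0.38) and TEAD4 did not pass (-0.10). FJX1 (-0.62) and ARHGEF17 (-0.31) fell. AXL (-0.06), CCN3 (0.08) and AMOTL1 (-0.10) did not pass.

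The windows of the 2 largest rises of this list with a promoter in the table are shown with the TEAD word GGAATG or its reverse complement CATTCC in capitals. They are chr6:131951373-131951622 on the minus strand for CCN2 and chr3:134374448-134374697 on the minus strand for AMOTL2. For AMOTL2 it is the window, of 2 listed starts, that holds the word.
CCN2: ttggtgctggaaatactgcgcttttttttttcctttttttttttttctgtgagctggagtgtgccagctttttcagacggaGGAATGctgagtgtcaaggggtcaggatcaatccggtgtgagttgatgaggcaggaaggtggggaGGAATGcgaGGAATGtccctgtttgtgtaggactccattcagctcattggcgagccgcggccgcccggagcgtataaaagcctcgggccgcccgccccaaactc
AMOTL2: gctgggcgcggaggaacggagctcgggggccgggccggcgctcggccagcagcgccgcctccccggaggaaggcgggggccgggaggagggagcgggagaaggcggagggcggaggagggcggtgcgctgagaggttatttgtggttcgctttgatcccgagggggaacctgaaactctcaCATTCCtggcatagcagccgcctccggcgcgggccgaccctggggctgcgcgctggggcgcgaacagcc
CCN2 holds the word 3 times, at -169, -104 and -95, and AMOTL2 once, at -69. The word is short and was in 911 of the 9885 tested promoters (9.22%). Of the 21 tested genes of the list 15 had a promoter in the table, and 6 of these held the word (40%), or 9 (60%) over every listed start, against 12.8% of tested promoters over every listed start. The list was made of known targets together with regulators and components of the pathway, and the shares are a description.

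TGF-beta genes followed a like pattern, with 13 of 20 tested higher and 2 lower (median 0.31). Among ligands, BMP4 rose from 4.46 ± 0.0986 to 12.6 ± 1.20 FPKM (1.31) and TGFB2, which is also in the YAP list, by 0.64. The inhibitory SMAD7 rose by 0.75, and the targets ID3 by 0.90 and ID2 by 0.89, whereas ID1 was at 58.9, 50.8 and 55.9 FPKM against 55.6, 57.5 and 56.9 FPKM, overlapping and without a call (-0.04). The receptor TGFBR1 fell by 0.27.

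Immediate early factors split. Of 22 AP-1 and related genes tested 12 rose and 5 fell (median 0.14). The small MAF proteins MAFK (1.32) and MAFF (0.85), IER5, a coactivator of HSF1 (0.91), MYC (0.82), FOSL2 (0.63), ATF3 (0.58) and JUN (0.55) rose. FOS fell, at 1.68, 0.644 and 0.758 FPKM with exposure against 2.00, 2.23 and 1.99 FPKM without (-0.63), with a wide scatter among the exposed libraries. IER2 fell from 15.0 ± 0.641 to 8.68 ± 0.513 FPKM (-0.73) and ZFP36L2, which destabilises AU-rich RNA, from 29.3 ± 0.576 to 15.3 ± 0.674 FPKM (-0.89). EGR1, EGR2, EGR3, FOSB and NR4A3 were too low to be tested.

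Feedback inhibitors of MAP kinases rose in 9 of 14 cases and fell in 0 by limma, also 0 at an unadjusted p of 0.05 (median 0.40). The phosphatase DUSP1 stood at 164, 151 and 152 FPKM with exposure and 51.6, 52.9 and 48.4 FPKM without (1.59), and DUSP5 at 23.0, 23.4 and 22.2 FPKM against 8.39, 7.58 and 8.54 FPKM (1.38). ERRFI1, an inhibitor of the EGF receptor, rose by 1.15. Of 8 EGF receptor family genes and ligands tested 3 rose and 2 fell, with differences from -0.31 to 1.18. The ligands NRG1 (1.18) and EREG (0.75) were among the rises and the receptor ERBB2 (-0.23) among the falls.

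Secreted signals rose among those that could be tested. Of 21 chemokines and interleukins 10 were too low to be tested, among them IL6, IL1A and CCL20, and of the other 11 9 rose and 1 fell (median 0.74). CXCL8, a neutrophil attractant, was at 4.78, 4.87 and 4.82 FPKM against 2.10, 2.19 and 1.53 FPKM (0.99). CSF1 (0.95), CXCL2 (0.86), CCL2 (0.85), LIF (0.82) and CXCL3 (0.74) rose by similar amounts. IL1B, the member that fell (-0.28), was not called in 8 of the settings. In the NF-kB list, 8 of 17 genes rose and 2 fell: the apoptosis inhibitors BIRC3 (0.79) and BIRC2 (0.47) and the inhibitor NFKBIA (0.36) were higher, and the subunit RELA was lower (-0.27). Of 22 matrix and protease genes 4 rose and 1 fell, led by THBS1 (0.78).

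**Figure D3:**
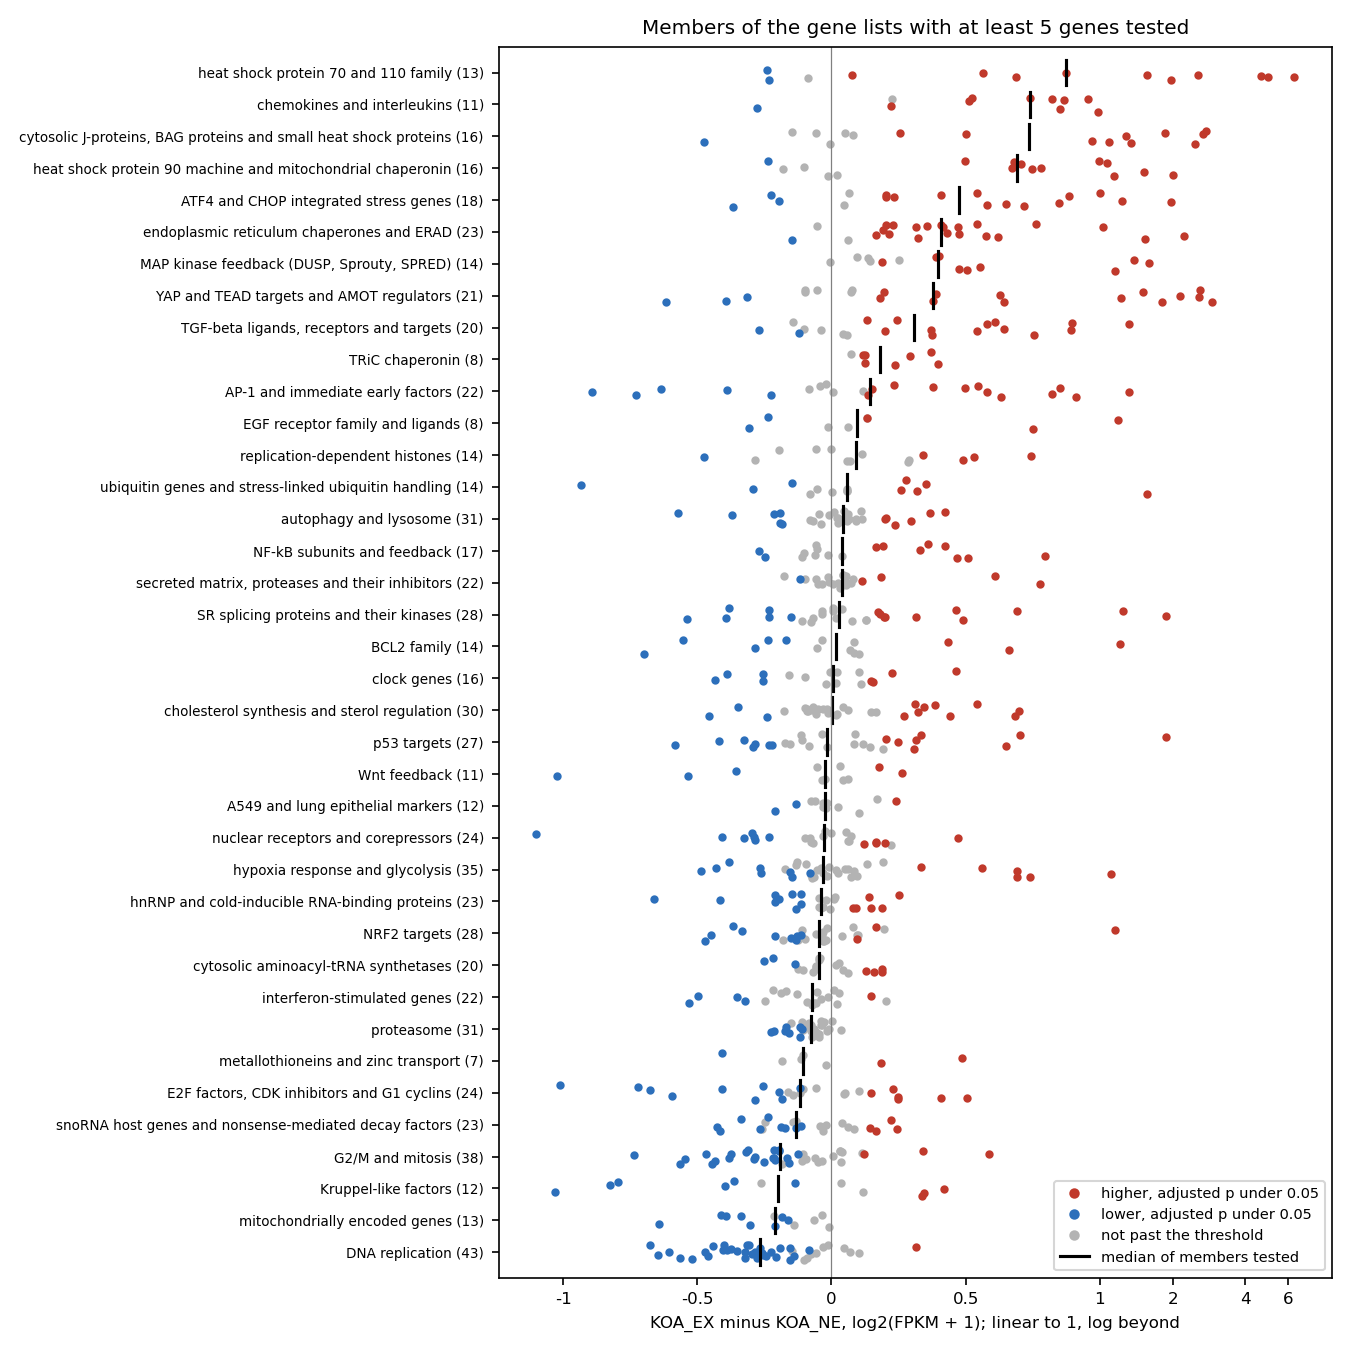
Difference between exposed and unexposed knockout cells for every tested member of the gene lists with at least 5 tested genes (x axis, log2 scale, linear to 1 and logarithmic beyond), with the median of each list as a bar and the number tested in brackets. The HSP70 list and the chemokines lie at the top and DNA replication at the bottom, with a median of -0.27.

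Falls were many and modest. NRIP1, a corepressor of nuclear receptors, stood at 8.45, 8.24 and 8.26 FPKM with exposure and 22.2, 22.0 and 21.2 FPKM without (-1.29 ± 0.09, adjusted p = 1.18e-11). CAMKK1, a calcium-dependent kinase kinase, was at 3.39, 3.86 and 4.36 FPKM against 10.2, 11.2 and 10.5 FPKM (-1.26), and GPCPD1, a glycerophosphocholine phosphodiesterase, at 5.08, 5.36 and 5.42 FPKM against 12.8, 13.2 and 13.0 FPKM (-1.16). In each of these the exposed libraries sat below every unexposed library with a wide gap.

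The other genes that fell by at least 1 were KLF11 (-1.08), the Wnt feedback gene AXIN2 (-1.06), E2F2 (-1.03) and RAI1 (-1.01). Below that size came CEBPA, a differentiation factor, which fell from 5.72 ± 0.349 to 2.46 ± 0.41 FPKM (-0.96), the corepressor scaffold SIN3A (-0.94), TOE1, a nuclear deadenylase (-0.91), DDIT4L (-0.91), ZNF784 (-0.95), FAM214B (-0.95) and the uncharacterised locus LOC107984338, at 5.04, 7.32 and 7.69 FPKM against 13.4, 13.4 and 14.2 FPKM (-0.95). The last varied most between exposed libraries, replicate 1 being the lowest. CEBPA fell while its relatives CEBPB and CEBPD rose, the latter from 15.5 ± 0.966 to 58.6 ± 2.30 FPKM (1.85).

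**Figure D4:**
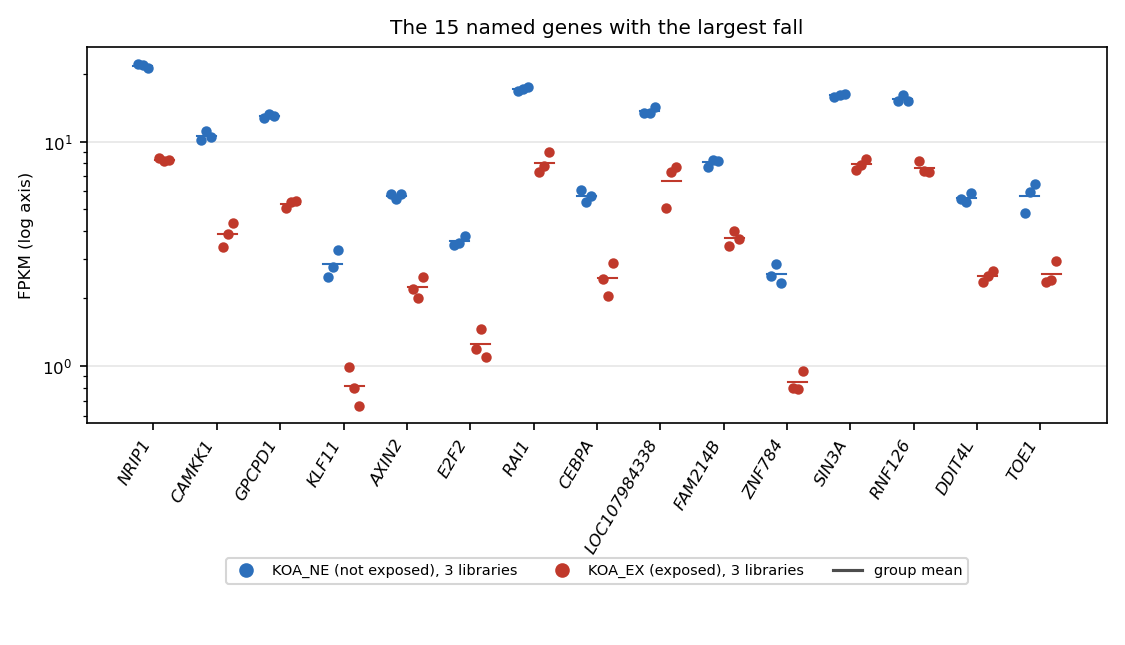
FPKM (log axis) in each of the 3 exposed and 3 unexposed libraries for the 15 named genes with the largest fall, with group means as bars. The groups are apart in each gene because the naming rule required it. The distances are far smaller than among the rises, with NRIP1 going from a mean of 21.8 to 8.32 FPKM.

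Kruppel-like factors fell more often than they rose, with 6 of 12 lower and 3 higher (median -0.20). Besides KLF11, KLF9 (-0.82), a glucocorticoid-responsive repressor, and KLF4 (-0.80), a factor of epithelial identity, were lower, and KLF5 (0.42) and KLF12 (0.35) higher. In the Wnt list 3 of 11 fell, AXIN2, DKK1 (-0.54) and NKD1 (-0.36), and 2 rose. Of 24 nuclear receptors and cofactors 7 fell and 5 rose, among them RARB (-0.41) and HNF4A (-0.32) lower and NR2F2 (0.47) higher. Clock genes were even, with 4 of 16 in each direction, TEF (-0.43) and PER3 (-0.39) being the lowest.

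Genes of the dividing cell were mostly called lower. Of 43 DNA replication genes tested 32 fell and 1 rose (median -0.27). The primase subunit PRIM1 stood at 11.9, 12.2 and 12.8 FPKM with exposure and 20.2, 20.5 and 20.1 FPKM without (-0.68), and ORC1 of the origin recognition complex at 6.05, 4.98 and 5.81 FPKM against 8.92, 9.89 and 9.21 FPKM (-0.65). The polymerase subunits POLD3 (-0.61) and POLE2 (-0.57) and the histone chaperone CHAF1A (-0.52) fell as well. Subunits of the MCM helicase fell by less, from -0.32 for MCM4 to -0.22 for MCM2. SLBP, which binds the stem-loop of histone RNA, was the member that rose (0.31). TYMS (-0.10), CDC6 (-0.07), TK1 (-0.06) and MCM10 (-0.03) did not pass.

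An E2F word (TTTCGCGC, TTTGGCGC or TTTCCCGC, on either strand) was in the first listed window of 12 of the 36 replication genes with a promoter (33.3%), against 400 of the 9885 tested genes (4.05%). Of these 12, 10 fell and 2, CDT1 (-0.15) and TYMS, did not pass, which is to be read against 32 falls among all 43 replication genes tested. Over all tested genes the word was in 4.51% of promoters of genes that fell and in 3.21% of those of genes that rose. A link between the word and the falls was not tested.

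Upstream of replication, 10 of 24 E2F factors, cyclins and inhibitors fell and 6 rose. E2F2 went from 3.59 ± 0.172 to 1.25 ± 0.193 FPKM, E2F8 fell by 0.68, and the G1/S cyclins CCNE2 (-0.72) and CCNE1 (-0.59) were lower. CDK6 (0.51) and CCND1 (0.41) of early G1 were higher. The inhibitor CDKN2A was listed at 0. Of 38 G2/M genes 22 fell and 3 rose (median -0.19). CCNF (-0.74), the kinetochore subunit NDC80 (-0.56), the kinesins KIF2C (-0.55) and KIF11 (-0.47) and the kinase PLK1 (-0.44) were lower, and CKS2 (0.59) was higher. CDK1 (-0.05) and TOP2A (-0.06) did not pass. Of 39 replication-dependent histone genes 14 were tested in this polyadenylated RNA, 4 higher and 1 lower.

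Splicing regulators were listed because RSRP1 is itself rich in arginine and serine, as SR splicing proteins are. Of 28 SR proteins and their kinases 10 rose and 6 fell (median 0.03). The kinase CLK1, which phosphorylates SR proteins, stood at 46.4, 46.5 and 38.6 FPKM with exposure and 11.8, 11.0 and 10.5 FPKM without (1.89 ± 0.07). Its relative CLK4 rose from 5.53 ± 0.827 to 14.5 ± 1.05 FPKM (1.25), CLK3 by 0.49, and CLK2 did not pass (-0.07). SRSF6 fell from 46.3 ± 0.593 to 31.5 ± 0.618 FPKM (-0.54), SRSF2 by 0.39 and SRSF5 by 0.38, while RSRC2 rose (0.69). These are gene totals, so spliced and intron-retaining forms are not separated. Of 23 hnRNP and cold-inducible proteins 9 fell and 6 rose, CIRBP, a cold-inducible RNA-binding protein, falling most (-0.66).

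Mitochondrially encoded RNA took a smaller share of the exposed libraries. The 13 genes held 23.5%, 25.5% and 24.2% of all FPKM with exposure and 29.7%, 28.4% and 27.2% without, a difference of -4.01 percentage points (two-sided exact permutation p = 0.1, the smallest possible). By limma 8 of the 13 were lower and 0 higher, also 0 at an unadjusted p of 0.05. All 13 differences were below 0, from -0.64 for ND1 to -0.01 for CYTB. ND1, a subunit of complex I, was at 6669, 7240.5 and 7039.6 FPKM against 11729, 10838 and 10150.0 FPKM. Quantile normalization left 5 lower and made 2 higher. Because FPKM are relative, a smaller mitochondrial share raises the values of all other genes. Rescaled without these 13 genes, by their share of recovered reads and not of FPKM, 1962 genes were higher and 3392 lower. In bulk libraries less RNA per cell and fewer cells of a kind cannot be told apart.

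Other stress lists were mixed. Of 28 NRF2 targets, genes of the oxidative stress response, 3 rose and 9 fell, although NFE2L2, which encodes NRF2, rose from 26.2 ± 0.828 to 59.5 ± 0.0982 FPKM (1.15). SRXN1 (-0.47) and GCLC (-0.45) were lower and HMOX1 (-0.03) did not pass. Of 35 hypoxia and glycolysis genes 6 rose and 8 fell, with the collagen hydroxylase P4HA1 (1.11) and the transporter SLC2A3 (0.69) higher and EGLN3 (-0.48) lower. Of 7 metallothionein and zinc genes 2 rose and 1 fell, and MT2A did not pass (-0.11). Of 22 interferon-stimulated genes 1 rose and 4 fell, with IFIT1 (-0.53) the lowest.

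Of 27 p53 targets 8 rose and 7 fell. GADD45B rose from 2.20 ± 0.411 to 10.8 ± 0.902 FPKM (1.88), whereas GADD45A (-0.58) and MDM2 (-0.33) fell. In the BCL2 family the survival genes MCL1 (1.21) and BCL2L1 (0.43) and the BH3-only gene PMAIP1 (0.66) rose, and the BH3-only genes BCL2L11 (-0.70) and BMF (-0.55) fell, with 3 of 14 higher and 5 lower. The 5 became 3 in 6 of the settings. Of 30 genes of cholesterol synthesis and its control 9 rose and 3 fell, with INSIG1 (0.68) higher and SREBF1 (-0.46) lower. Autophagy and lysosome genes were even, with 6 of 31 in each direction, and of 23 snoRNA host genes and decay factors 4 rose and 9 fell.

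A handful of genes went from near silence to a measurable level. With limits set after seeing the data, 10 genes had a mean under 0.5 FPKM without exposure and of at least 2 FPKM with it, and 0 the reverse. Besides HSPA6, ANKRD1 and HSPA1L they were PGF, a placental growth factor (3.28, 3.13 and 2.82 FPKM against 0.229, 0.19 and 0.22 FPKM), COL1A1 (2.48, 2.39 and 1.83 FPKM against 0.493, 0.443 and 0.511 FPKM), and, with log2 differences in parentheses, LEAP2 (1.53), THAP2 (1.26), DHDH (1.08), ZNNT1 (1.80) and LOC105372426 (1.20). COL1A1 is also a defining fibroblast marker. The 10 fibroblast markers summed to between 12.3 and 12.7 FPKM with exposure and between 8.60 and 9.81 FPKM without, 2 of the 4 tested rose (COL1A1 and ACTA2), and COL1A2 and LUM were listed at 0. The part of other cells in these values was not tested. Of 8 immune markers 6 stayed under 1 FPKM in all 6 libraries and TYROBP was listed at 0, while the whole immune list, mostly CD68 and CD14, summed to 40.7 to 44.7 FPKM exposed and 43.9 to 45.1 FPKM unexposed. The 7 endothelial markers summed to at most 0.875 FPKM in any library.

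Genes with large rises were short. The median span from the annotated start to the end of the gene was 14.6 kb for the genes that rose by at least 1 (101 with a position), 37.5 kb for all that rose, 25.3 kb for all that fell and 28.4 kb for all genes tested. The strongest rises thus lay on the other side of the tested genes from the rises as a whole.

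HSPA6, CLK1 and CCN1 had larger exposure effects without iR than in knockout cells that carry it, and ARRDC3 and KLF10 had lower ones. The targeted gene also differed between these knockout cells. RSRP1 was at 5.80, 6.26 and 6.84 FPKM in iR_KOA_EX and at 7.63, 7.95 and 7.45 FPKM in iR_KOA_NE. The KOA libraries held 2.09 to 2.70 FPKM. The part of this RSRP1 difference in what follows was not tested, and it cannot be told apart from iR. The difference between the effect without iR and that with iR was tested directly, over 4 groups that share no library. It passed for 614 genes, 5.08% of those tested, 413 positive (3.42%) and 201 negative (1.66%). The split depended on scaling: it was 304 positive and 291 negative with FPKM rescaled without mitochondrial genes, and 356 and 281 with quantile normalization. The mitochondrial share of FPKM was 28.4% ± 1.3 in KOA_NE but 24.6% ± 0.31 in iR_KOA_NE, and 24.4% ± 1.0 in KOA_EX and 25.8% ± 2.2 in iR_KOA_EX (SD, n = 3 each). Of the 13 mitochondrial genes 7 passed with a negative sign.

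HSPA6 reached 12.9, 9.24 and 8.81 FPKM in the exposed libraries with iR, far below the exposed libraries without it, from 0.023, 0.0575 and 0.0693 FPKM unexposed. Its effect was 6.37 without iR and 3.41 with it, a difference of 2.96 ± 0.22 (SE, limma adjusted p = 1.39e-09). HSPA1B differed by 0.85 (adjusted p = 0.0231), and HSPA1A, with 0.86, did not pass (adjusted p = 0.0608).

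With iR, CLK1 was at 18.0, 18.5 and 19.1 FPKM exposed and 20.3, 20.5 and 19.4 FPKM unexposed, an effect of -0.11 against 1.89 without iR (difference 1.99 ± 0.11, adjusted p = 4.23e-12). The unexposed libraries with iR all lay above the unexposed libraries without it. CCN1 was at 9.20, 11.4 and 11.9 FPKM exposed and 3.34, 3.39 and 3.82 FPKM unexposed with iR, an effect of 1.38 (difference 1.54). AMOTL2 (difference 1.46), CCN2 (1.43) and CEBPD (1.47) completed the 6 largest positive genes. By limma 8 of the 21 YAP genes were positive and 0 negative (12 and 2 at an unadjusted p of 0.05). Of the heat shock lists, the HSP70 list had 5 of 13 positive (7 at an unadjusted p of 0.05), the list of J-domain, BAG and small heat shock genes 6 of 16 (9), the HSP90 machine 2 of 16 (11) and TRiC 0 of 8 (3). None of the 4 held a negative gene by limma, and at an unadjusted p of 0.05 the second held 1 and the others 0. The ER list had 1 of 23 positive and 1 negative (1 and 5 at an unadjusted p of 0.05). Whether lists differ from each other was not tested.

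Among the negative genes, ARRDC3, an arrestin-like adaptor, fell without iR from 8.74 to 4.25 FPKM and had an effect of 0.32 with iR (difference -1.21 ± 0.11, adjusted p = 2.63e-08). KLF10, a TGF-beta-inducible factor, was at 20.2, 20.5 and 19.6 FPKM against 22.0, 22.6 and 21.9 FPKM without iR and at 30.1, 36.3 and 30.3 FPKM against 17.9, 18.3 and 17.5 FPKM with it (difference -0.94). Its small fall without iR (-0.13) lost its call in 9 settings. ID1 overlapped between the groups without iR and was at 99.0, 73.1 and 81.7 FPKM against 46.0, 43.7 and 51.3 FPKM with iR (difference -0.87). NRIP1 (difference -0.84), SOCS3, an inhibitor of cytokine signalling (-0.82), and the noncoding MAFG-DT (-0.80) followed. Of the 12 Kruppel-like factors 5 were negative and 1 positive.

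**Figure D5:**
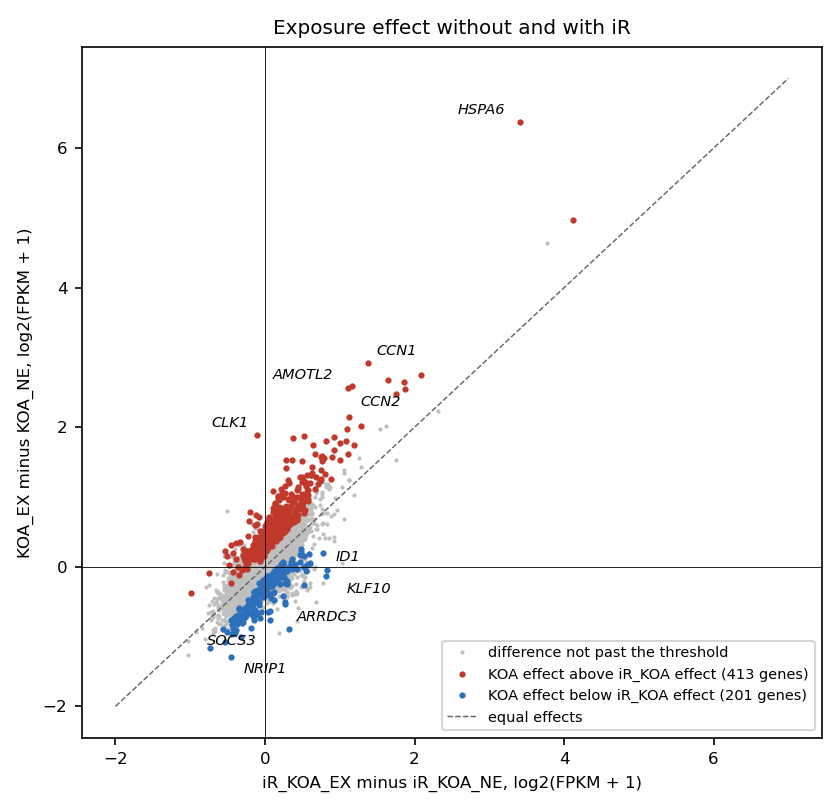
Exposure effect in knockout cells without iR (y axis) against that with iR (x axis), both on the log2 scale, for each gene tested, coloured where the difference passed the test. HSPA6, CCN1, CCN2 and AMOTL2 lie above the line of equal effects and CLK1 has an effect of -0.11 with iR, while ARRDC3, KLF10 and ID1 lie below it.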

How the data were processed

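RNA of A549 cells was extracted, treated with DNase and enriched with oligo(dT), per the labels' protocols. Reads went through fastp, HISAT2 and HTSeq on GRCh38, per the submitters' processing notes, which give no versions. The strand setting, annotation, gene lengths and filters are unknown here, so reads of genes that overlap on opposite strands may be mixed. The authors deposited FPKM for 26801 genes, and 6 columns (EX_A549 and NC_A549, whose names carry neither the knockout nor iR) were not used here because no sample label matched them. Whole reads were recovered for all 26801 genes within a tolerance of 0.01. They gave the depth, the reads quoted for single genes, the simulated data and the mitochondrial share of reads used in the rescaled setting. The main fit did not use them. Each FPKM was taken as log2(FPKM + 1) for the 12086 genes that reached 1 FPKM in 3 or more of the 30 libraries. All 10 groups were fitted together (limma 3.58.1, R 4.3.3, moderated test with mean-variance trend, 20 residual degrees of freedom), two-sided, with Benjamini-Hochberg adjustment for each comparison and a threshold of 0.05. The other groups serve only to estimate the spread.

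The 42 gene lists hold 909 names, of which 899 were matched by symbol, 2 by identifier and 6 not at all, and 2 were repeats. Members and lists were chosen with earlier results of these data known, and lists share members, so their counts are descriptions. Named are RSRP1 and the 15 largest rises and falls that passed, reached 2 FPKM in 1 group and had separate libraries. Added to these are the 6 members of each list with the largest absolute difference and further members of lists described by role. The 6 largest of each sign against iR_KOA passed the test of the difference and reached 2 FPKM in at least 1 of the 4 groups. Their exposed libraries, each taken against its unexposed mean, were separate between KOA and iR_KOA. Separation of exposed from unexposed libraries was not required there, and ID1 overlaps in KOA. Some genes that the rule names are not reported here. Promoters and positions are from RefSeq (GRCh38.p14): 9885 of the 12086 tested genes had a promoter, and the first listed start was used unless stated. The fit was also run on simulated reads with the same spread for every gene and few changed genes. That setting is simpler than these data, and no conclusion is drawn from it. Alternatives were other pseudocounts, filters and scalings, the compared groups alone, a replicate block and leaving out each library.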

Additional observations from a re-analysis of the deposited data

Results flagged for a closer look

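The exposure effect without iR differed from the effect with iR, by the test of the difference itself, for 614 genes. The level of RSRP1 also differed between these knockout groups, as given above. The 12 named genes among them were HSPA6 (2.96), CLK1 (1.99), CCN1 (1.54), CEBPD (1.47), AMOTL2 (1.46) and CCN2 (1.43), with the larger effect without iR, and ARRDC3 (-1.21), KLF10 (-0.94), ID1 (-0.87), NRIP1 (-0.84), SOCS3 (-0.82) and MAFG-DT (-0.80), with the lower effect without iR (log2 differences of effects, limma adjusted p from 4.23e-12 for CLK1 to 0.00345 for MAFG-DT). With iR, CEBPD was at 25.5, 24.0 and 24.2 FPKM exposed and 18.7, 18.1 and 19.2 FPKM unexposed, AMOTL2 at 15.6, 18.3 and 18.1 FPKM and 6.63, 7.44 and 8.59 FPKM, and SOCS3 at 3.96, 4.35 and 4.95 FPKM and 4.36, 3.78 and 4.44 FPKM, the last overlapping.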

How the results depend on the processing

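The count of genes past the threshold in KOA was 5020. It ran from 4147 to 4684 when 1 library at a time was left out and from 4911 to 5797 in the other settings, the highest with only the compared groups fitted. The count for the difference from iR_KOA was 614, with 417 to 695 when 1 library was left out and 432 with the compared groups alone. With the replicate number as a block the counts were 4994 and 545. Same-numbered libraries deviated together only weakly (r = 0.0868, 0.0652 and 0.1193 over genes), so the numbers were not taken to pair the samples, although each exposed library correlated best with its own number. The denominator moved the shares: without mitochondrial genes the heat shock lists gained 1.36 percentage points (1.09 over all genes) and HSPA1A with HSPA1B 0.273 (0.207 over all genes). No named gene changed sign with its call. List counts that moved by over 1.5 times ran over the settings as follows. Lower counts: proteasome 4 to 14 (8 as reported), mitochondrial 5 to 9 (8), hypoxia 5 to 12 (8), hnRNP 5 to 10 (9), BCL2 family 3 to 5 (5), interferon 4 to 7 (4), cholesterol 2 to 6 (3), tRNA synthetases 2 to 6 (3), ATF4 genes 1 to 3 (3), TGF-beta 1 to 3 (2), HSP70 1 to 2 (2) and HSP90 1 to 3 (1). Higher counts: hnRNP 3 to 6 (6), nuclear receptors 3 to 6 (5), tRNA synthetases 2 to 4 (4), snoRNA hosts 2 to 4 (4), NRF2 2 to 6 (3), metallothioneins 1 to 2 (2) and mitochondrial 0 to 2 (0). The other such lists had 1 or 2 genes called. Depth limits HSPA6, whose unexposed libraries hold 4, 4 and 1 reads.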
